A study of Mus musculus with 56 samples.

Results

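The cells described here are colon tumor cells chosen by their own level of Agr2, which had to be 1 TPM or more, and they numbered 25 of 50. TPM is the level of a transcript for its length, scaled to the same total in each library. They came from 1 male ApcMin/+ mouse, whose truncated copy of Apc activates Wnt signaling and gives rise to intestinal tumors, and from 10 weeks of age the mouse had drunk 2% dextran sulfate sodium (DSS), which damages the lining of the colon, over 5 days. At 12 weeks 3 tumors were digested and mixed, and living cells with EpCAM and CD24 on their surface, and without the endothelial protein CD31 or the leukocyte protein CD45, were sorted singly. Each cell was made into cDNA by Bead-seq, a method that builds the library of a single cell on beads, and only cDNA that gave an Lgr5 band in a 32-cycle PCR was sequenced, Lgr5 being the receptor gene of intestinal stem cells. All cells therefore share the mouse, the genotype, the DSS and the sort, no untreated or Apc wild-type cells are among them, and the mixing hides which of the 3 tumors a cell came from. The 56 libraries held 6 pairs with a Pearson's r of 0.957 to 0.992, against 0.782 for the next pair, and the mean of each such pair stood for 1 cell. The Agr2 cells stand for 29 libraries, and the 25 cells with Agr2 below 1 TPM, called the other cells from here on, stand for 27.

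Agr2 encodes a member of the protein disulfide isomerase family that stays in the endoplasmic reticulum (ER), where such enzymes form and rearrange the disulfide bonds of proteins on their way out of the cell. In the mouse intestine it is best known from goblet cells, which need it to make the mucin MUC2, and it is also made in other epithelial cells and in many adenocarcinomas. In human cells AGR2 has been tied to the delivery of the EGF receptor to the cell surface, and FOXA1 and FOXA2 activate its gene.

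Agr2 itself chose the groups, so its values are only a description. The gene (ENSMUSG00000020581) lies on chromosome 12 at 35992907 to 36004087 on the plus strand (GRCm38), and no other annotated gene overlaps it. In the Agr2 cells it ranged from 4.84 TPM through a median of 48.7 TPM to 478 TPM. In the other cells it was listed at 0 in 9 and lay between 0 and 1 TPM in 16, with a highest value of 0.84 TPM. The values nearest to the threshold were 0.54 and 0.84 TPM below it and 4.84 and 9.74 TPM above it, so no cell lay between 0.84 and 4.84 TPM, and 23 of the 25 Agr2 cells were at 10 TPM or more. The share of Agr2 cells was 50% (exact Clopper-Pearson 95% interval 35.5% to 64.5%, which covers counting error only). In all 6 pairs of libraries both members fell on the same side of the threshold. Agr3, the neighbouring family member at 35925620 to 35949736 on the same strand, reached 1 TPM in 0 of 25 Agr2 cells (interval up to 13.7%) and in 1 of 25 other cells, where it stood at 13.9 TPM.

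**Figure D1:**
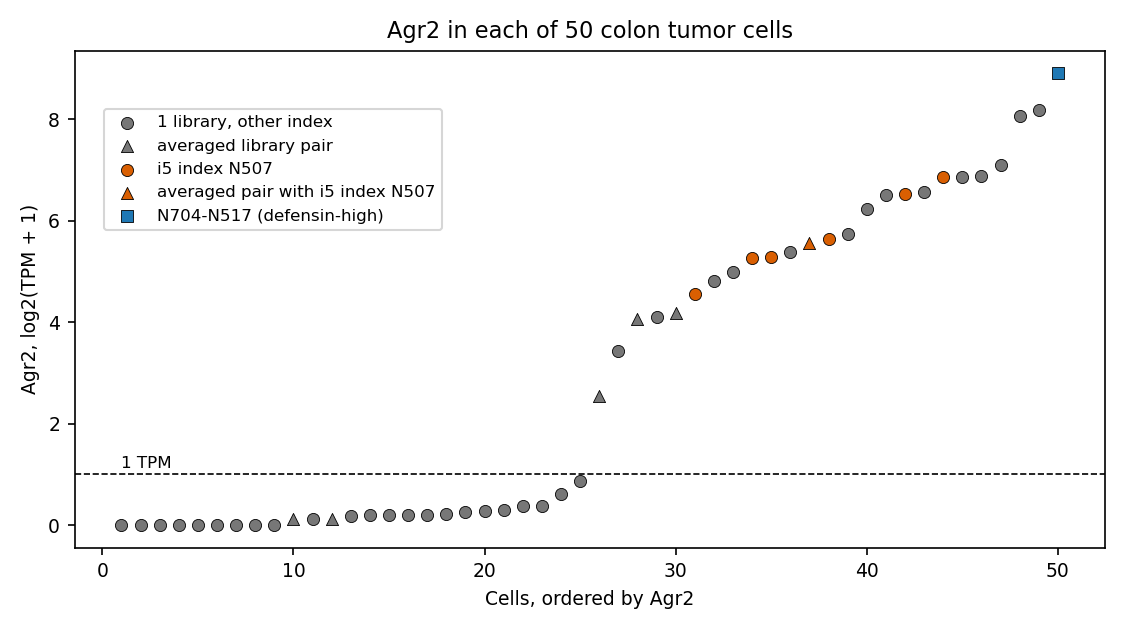
Agr2 in each of the 50 cells, ordered by its level, on an axis of log2(TPM + 1); each point is a cell, triangles are averaged pairs of libraries, orange marks the i5 index N507, the blue square is N704-N517 and the dashed line is the 1 TPM threshold. The 25 Agr2 cells lie at 4.84 to 478 TPM and the 25 other cells at or below 0.84 TPM, with no cell between.

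Agr2 cells were unevenly spread over the library indexes. With the i5 index N507 all 7 cells were Agr2 cells (22.4 to 115 TPM, median 46.5 TPM), and with N506 1 of 7 was. The other i5 indexes held 2 to 5 Agr2 cells of 7. Among i7 indexes, N704 to N707 held 15 Agr2 cells of 32 and N708 to N710 held 10 of 18. The part of the index in any difference below was not tested, and values within index groups are given for some of the genes below.

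The groups had similar numbers of genes at 1 TPM or more. These were 5974 ± 770 (SD, n = 25) in the Agr2 cells and 5592 ± 1124 (SD, n = 25) in the other cells, with medians of 5923 and 5890. The other cells held 1 with only 1316 genes, in which 85.1% of TPM belonged to the pseudogene Gm10925, and without it their mean was 5770 ± 699 genes. Depth cannot be read from TPM and is unknown for these libraries, and a value of 0 is read only as listed at 0.

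As a cell type, the Agr2 cells did not carry goblet cell genes as a group. The library N704-N517 stood apart from the other 24 Agr2 cells. Of 16 goblet genes it held 9 at 1 TPM or more, whereas the other 24 Agr2 cells held 0 to 4 (median 1.5) and the other cells 0 to 3 (median 1). That library had Agr2 at 478 TPM, the highest value of all, and Atoh1, the transcription factor that starts the secretory lineage, at 292 TPM. Atoh1 was at most 0.68 TPM in the other 24 Agr2 cells and listed at 0 in all other cells. The trefoil factor Tff3 was at 131 TPM in N704-N517, reached 1 TPM in 1 further Agr2 cell (8.76 TPM), and in no other cell. Spink4, a secreted goblet cell peptide, was at 1313 TPM there, against at most 13.2 TPM in the remaining Agr2 cells and 9.93 TPM in the other cells. Muc2, the main mucin of the colon, was at 1.48 TPM there and listed at 0 in the remaining 49 cells, and the goblet products Clca1 and Retnlb were listed at 0 in all 50.

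N704-N517 also held Paneth cell genes, which encode the antimicrobial proteins of the small intestinal crypt. Defa24 made up 23.9% of its TPM and the lysozyme gene Lyz1 4.49%. Over all cells Lyz1 was higher in the Agr2 cells by 1.39 on the log2(TPM + 1) scale, by 0.86 without N704-N517 and by 0.44 without the libraries that share an index with it. Defa24 went from 1.26 to 0.65 and to -0.02 in the same steps, so both were within the limit of 1 without that library. Of 11 Paneth and deep crypt secretory genes 8 passed the filter, with 3 higher (Lyz1, Defa24 and Reg4), 1 lower (Nupr1, -1.18) and a median of 0.74, and Reg4 too was within the limit without N704-N517. Because defensin genes are near-identical copies, the entry Defa24 is uncertain. Of 16 enteroendocrine and 13 tuft cell genes, 2 in each list passed the filter, and none of those was apart by 1 or more. Some of them were widespread in both groups. Fev, a transcription factor gene of serotonin-making enteroendocrine cells, was at 12.3 to 102 TPM (median 37.05 TPM) in the Agr2 cells and 12.99 to 60.7 TPM (median 35.2 TPM) in the other cells, so it was listed in all 50 cells. Its SD over cells was 0.54 and 0.47 on the log2 scale, against a median of 1.67 over genes. Chga, Chgb, Neurod1 and Neurog3 of the same list were at 0 in all 50, and what the even Fev level reflects was not tested. Avil, a tuft cell gene, was at 1 TPM or more in 23 cells of each group, with medians of 38.8 and 46.7 TPM. For these reasons the cells are called Agr2 cells here, not secretory cells.

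Outside Agr2, 9165 genes were at 1 TPM or more in 20% of cells and were compared. A gene seen mostly in 1 group can pass this filter through that group, which favours that direction. The measure is the difference between the mean log2(TPM + 1) of 25 Agr2 cells and of 25 other cells, and a gene counts as higher or lower when that difference is at least 1, which is a 2-fold difference on that scale and understates the difference of low genes. By that measure 549 genes (5.99%) were higher in the Agr2 cells and 255 (2.78%) were lower, and without N704-N517 644 (7.03%) were higher and 221 (2.41%) lower. Each count of list members, above and below, stands beside the shares of 5.99% and 2.78%. With a linear term for genes per cell, 333 were higher and 470 lower, so the balance between the directions depends on that number. When the other cell with the fewest genes, described above, was left out, 445 were higher and 358 lower. The shares of 5.99% and 2.78% thus depend in part on that cell. Single cells vary widely, with a median SD over cells within a group of 1.67, so a difference of 1 is usually within the spread. A second measure was therefore the share of pairs of 1 Agr2 cell and 1 other cell in which the Agr2 cell had more of the gene, with ties counted equally to each side. Over all genes that share had a median of 50.5% and lay between 35.4% and 65.1% for the central 90% of genes. The cells are of 1 mouse and are not replicates of a condition, so no test was made.

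The gene that separated the groups best on the higher side was Ffar4, which encodes a receptor for long-chain fatty acids (also called GPR120). It ranged from 0 to 119 TPM in the Agr2 cells with a median of 12.3 TPM, and from 0 to 10.9 TPM in the other cells with a median of 0. It reached 1 TPM in 18 of 25 Agr2 cells and 3 of 25 other cells. The difference was 2.58 (SD over cells 2.11 and 0.96), and the Agr2 cell had more in 82.3% of pairs. The ranges overlapped, as they did for every gene named here other than Agr2. Guca2b, which encodes the gut hormone uroguanylin, reached 1 TPM in 11 Agr2 cells and 1 other cell, at up to 187 and 31.4 TPM, with a difference of 1.86. Lgals4, the gene of the intestinal lectin galectin-4, was at 1 TPM or more in all 25 Agr2 cells (2.00 to 841 TPM, median 292 TPM) and in 16 other cells (0 to 860 TPM, median 31.5 TPM), a difference of 2.83. Oit1, which encodes a secreted gut protein of the FAM3 family, had medians of 11.02 and 0 TPM and a difference of 2.02, although its locus overlaps another annotated gene. Hnf4a, a transcription factor that maintains intestinal epithelial differentiation, had medians of 26.4 and 10.3 TPM and a difference of 1.37, which was 1.94 within N704 to N707 and 0.11 within N708 to N710. Of 12 colonocyte genes, 3 passed the filter and 2 of them, Guca2b and Ceacam1 (1.41), were higher. The colonocyte genes Car4, Aqp8, Slc26a3, Krt20, Fabp2, Alpi and Cyp2c55 reached 1 TPM in no cell, and Guca2b passed mostly through the Agr2 cells. The mean over the 12 genes differed by 0.32, with a pooled SD over cells of 0.41.

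**Figure D2:**
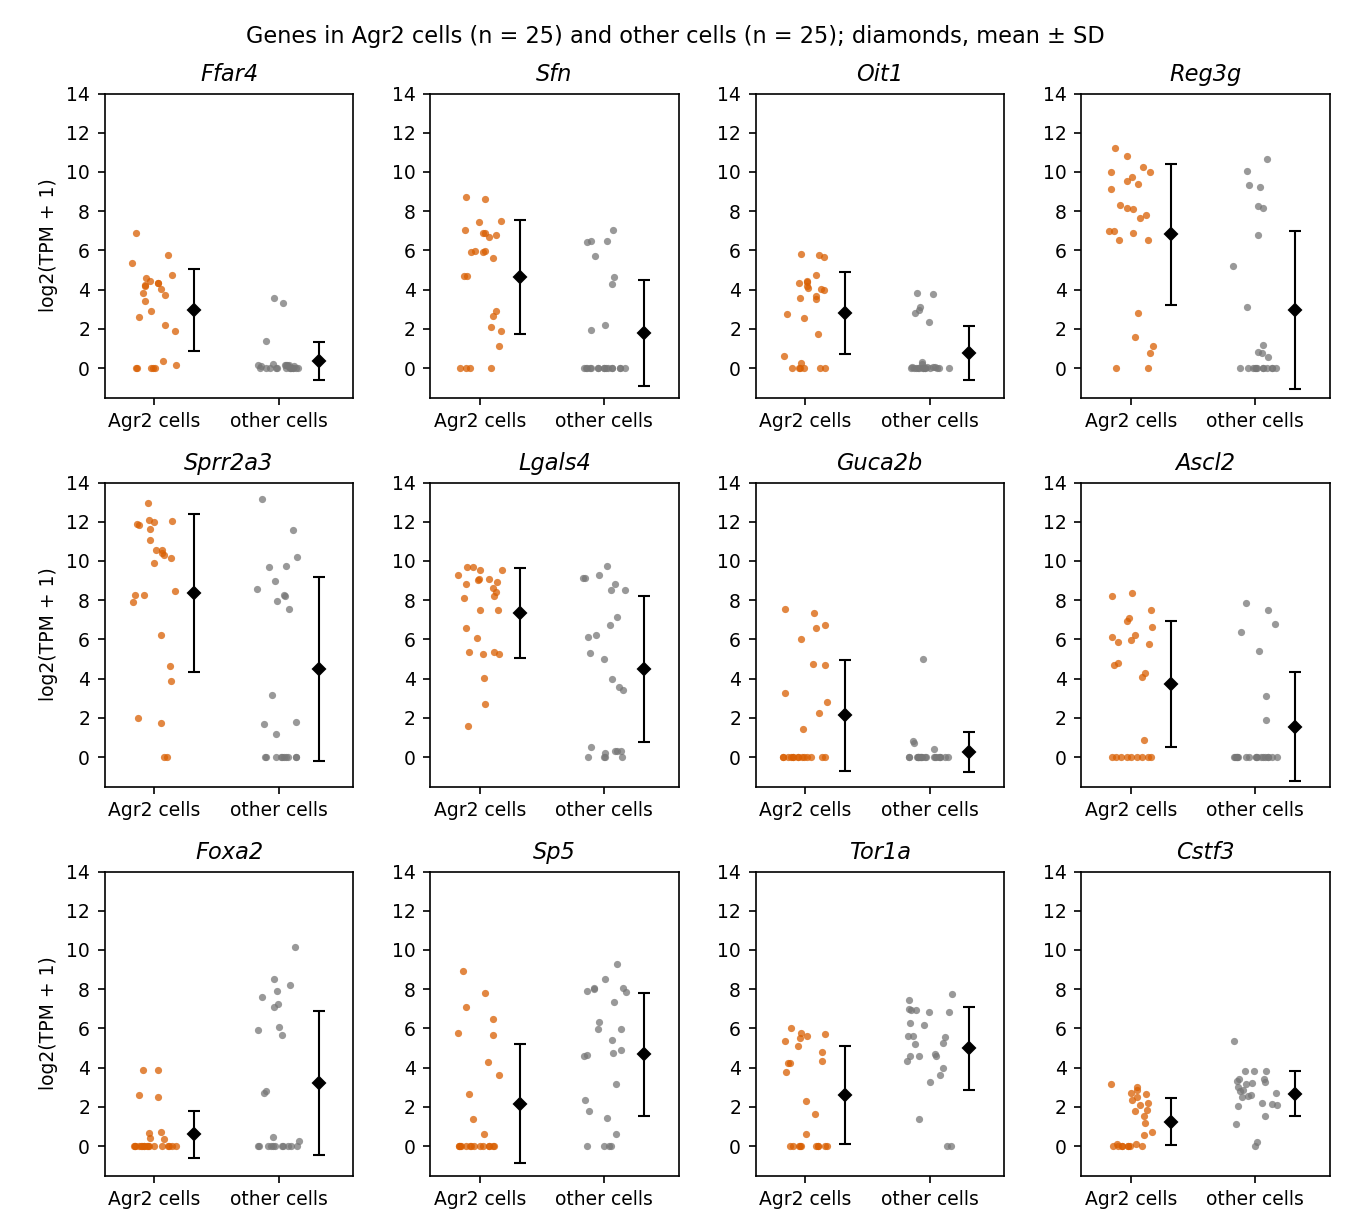
Levels of 12 genes, chosen after their values were seen, on an axis of log2(TPM + 1) in the 25 Agr2 cells (orange) and the 25 other cells (grey); each point is a cell and the diamond with its bar is the mean ± SD. Ffar4 has a median of 12.3 TPM in the Agr2 cells and 0 in the other cells, and for each gene the groups overlap.

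Genes of mucosal defence were the next group. Reg3g, an antibacterial lectin gene, ranged from 0 to 2401 TPM in the Agr2 cells (median 220 TPM, 22 of 25 at 1 TPM or more) and from 0 to 1615 TPM in the other cells (median 0.49 TPM, 10 of 25). The difference was 3.85 (SD over cells 3.58 and 4.02), and 3.14 and 4.71 within the 2 i7 groups. High values occurred in both groups. Of 14 Reg and antimicrobial genes, 8 passed the filter, of which 5 were higher and 0 lower. The list median was 1.08, and the mean over the list was 2.16 ± 1.09 (SD, n = 25) against 1.36 ± 1.03 (SD, n = 25) on the log2 scale. Beside Reg3g the 5 were Pigr (1.47), which encodes the receptor that carries IgA across the epithelium, Duoxa2 (1.83), needed to mature the oxidase DUOX2, Lypd8 (1.02), which in mice keeps flagellated bacteria off the colonic epithelium, and Reg4 (1.13, and 0.84 without N704-N517). Reg4 (8 Agr2 and 2 other cells), Duoxa2 (9 and 3) and Lypd8 (10 and 4) passed the filter mostly through the Agr2 cells. Genes that pass in this way tend to come out as higher. Nlrp6, a sensor gene of the intestinal epithelium, was at 1 TPM or more in 13 Agr2 cells and 3 other cells, with a difference of 2.26.

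Small proline-rich genes were also higher. Sprr2a3, a small proline-rich protein gene of the cornified envelope that is also made in injured gut, ranged from 0 to 8061 TPM in the Agr2 cells (median 1124 TPM) and from 0 to 9019 TPM in the other cells (median 2.53 TPM), a difference of 3.88 (SD over cells 4.03 and 4.69). The highest single value was thus in another cell. Sprr2a1 (2.67) and Sprr2b (1.70) were also higher, but Sprr2a1 overlaps Sprr2a2 and these copies are nearly identical, so reads may be split between them. Of 14 gastric and small proline-rich genes, those 3 of the 4 that passed the filter were higher. Sfn, the 14-3-3 sigma gene of epithelial cells, had medians of 58.9 and 0 TPM, was at 1 TPM or more in 21 and 9 cells, and differed by 2.83. Tspan1, a tetraspanin gene, had medians of 46.95 and 0.29 TPM and differed by 2.90.

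The stem cell genes did not go one way. Lgr5, on which the cells had been selected, was at 0 to 15.1 TPM (median 1.94 TPM) in the Agr2 cells and 0.02 to 16.2 TPM (median 3.62 TPM) in the other cells, a difference of -0.30. Ascl2, the transcription factor of the Lgr5 stem cell program, was at 0 to 329 TPM (median 24.97 TPM, 15 cells) against 0 to 232 TPM (median 0, 7 cells), a difference of 2.19. Cdca7 was higher by 1.78, while the crypt transcription factor gene Sox9 was lower by 1.18 and Axin2 by 1.02. Of 16 stem genes 15 passed the filter, with 2 higher, 2 lower and a median of -0.07.

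Wnt target genes lay on the low side. All 15 passed the filter, and 0 were higher and 4 lower, with a median of -0.61 against 0.03 for all genes. Sp5, a transcription factor gene that Wnt signaling switches on directly, ranged from 0 to 486 TPM in the Agr2 cells (median 0, 10 cells at 1 TPM or more) and from 0 to 616 TPM in the other cells (median 28.6 TPM, 20 cells), a difference of -2.51. Axin2, the feedback inhibitor of the pathway, had medians of 3.94 and 7.54 TPM. Apcdd1, a membrane inhibitor of Wnt, differed by -1.11. Prox1, a Wnt target of colon tumors and the gene in the title of the series, had medians of 5.91 and 18.6 TPM, was at 1 TPM or more in 19 and 22 cells, and differed by -1.06. These differences were larger among the cells of N704 to N707, where Prox1 differed by -1.52, Sp5 by -3.22, Axin2 by -1.41 and Apcdd1 by -1.69. In N708 to N710 they were -0.06, -0.97, -0.23 and 0.05. Without N704-N517 Axin2 (-0.93) and Prox1 (-0.97) were within the limit of 1, and Sp5 (-2.42) and Apcdd1 (-1.07) were past it.

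Of the transcription factors tied to the secretory lineage, 13 of 19 passed the filter, with 1 higher (Hnf4a), 2 lower (Foxa2 and Sox9) and a median of -0.68. Foxa2 was the most uneven. It reached 1 TPM in 4 Agr2 cells, with a highest value of 13.9 TPM, and in 12 other cells, with a highest value of 1121 TPM, a difference of -2.62 (SD over cells 1.22 and 3.68). Within N704 to N707 the difference was -3.77 and within N708 to N710 it was -0.39. Foxa1 was in nearly every cell, at 0 to 544 TPM (median 148 TPM) in the Agr2 cells and 37.1 to 740 TPM (median 295 TPM) in the other cells, a difference of -0.97, and Foxa3 differed by -0.14. Xbp1, the transcription factor that enlarges the secretory apparatus, was at 1 TPM or more in all 50 cells, with medians of 289 TPM in the Agr2 cells and 545 TPM in the other cells. It differed by -0.76, and the Agr2 cell had more in 25.1% of pairs. Klf4, a goblet cell transcription factor, differed by -0.79.

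Because the FOXA proteins activate AGR2 in human cells, the 250 bases before the RefSeq start of mouse Agr2 are shown, with forkhead motif matches in capitals (RefSeq, GRCm38.p6, chr12:35992675-35992924, plus strand). That start, at 35992925, lies inside the GENCODE gene, so the last 18 bases shown are inside the gene as placed above.
Agr2 promoter: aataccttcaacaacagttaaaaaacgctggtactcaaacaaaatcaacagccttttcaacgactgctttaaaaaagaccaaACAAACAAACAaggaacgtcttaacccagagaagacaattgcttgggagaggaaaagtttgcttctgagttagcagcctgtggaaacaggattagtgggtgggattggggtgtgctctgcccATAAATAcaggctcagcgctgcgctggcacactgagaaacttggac
The 8 motifs searched were TGTTTAC and TGTTTGC and TGTTTGT and TGTTTAT and, with A in the place of that G, TATTTAC and TATTTGC and TATTTGT and TATTTAT, on both strands. There were 3 matches, TGTTTGT at 2 positions that overlap each other and TATTTAT near the start, all read on the minus strand. At least 1 match occurred in 24.9% of 32851 mouse promoters of the same length, and 3 or more in 1.90%. A match is a description of the letters and not of binding.

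For the machinery around AGR2 in the ER, the counts stand beside 5.99% higher and 2.78% lower over all genes. Of the AGR and protein disulfide isomerase family, 20 of 24 passed the filter, with 1 higher, 0 lower and a median of 0.19. That gene was Prdx4 (1.13), the ER peroxiredoxin that feeds oxidising power to the isomerases. Prdx4 was within the limit with the linear term for genes per cell (0.73). It differed by 1.82 within N502 to N505 and by 0.30 within N506 to N517. P4hb, the founding isomerase, had medians of 170 and 157 TPM and differed by 0.44. Of 28 ER chaperone and unfolded protein response genes, 25 passed, with 1 higher and 2 lower. Edem1, which takes misfolded glycoproteins to degradation, was higher by 1.24, and the co-chaperone genes Dnajb9 (-1.66) and Sdf2l1 (-1.11) were lower. Hspa5, the chaperone BiP, had medians of 1262 and 1254 TPM and differed by -0.04. Of 41 genes of ER translocation and early transport, 39 passed, with 3 higher and 0 lower and a median of 0.34. The 3 were Ssr2 (1.44) of the translocon-associated complex and the oligosaccharyltransferase subunits Rpn1 (1.25) and Rpn2 (1.05). Ssr2 had similar medians, 110 TPM in the Agr2 cells and 109 TPM in the other cells. It reached 1 TPM in 25 Agr2 cells and 20 other cells, and the Agr2 cell had more in 60% of pairs. With the linear term for genes per cell Rpn1 (0.89) and Rpn2 (0.86) were within the limit, and Ssr2 was past it. The mean over this list differed by 0.28 with all cells and by 0.11 without the other cell with 1316 genes. Of 24 genes of mucins and their glycosylation, 11 passed and 0 were apart in either direction. Of 10 genes of the EGF receptor family and its ligands 6 passed, with 0 higher, 0 lower and a median of -0.19. Egfr, whose protein AGR2 has been tied to in human cells, was named after its values were seen. It reached 1 TPM in 2 Agr2 cells and 10 other cells, at most 8.21 TPM, a difference of -0.68. Egfr thus passed the filter mostly through the other cells, which favours the lower side. Erbb2 differed by 0.14.

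**Figure D3:**
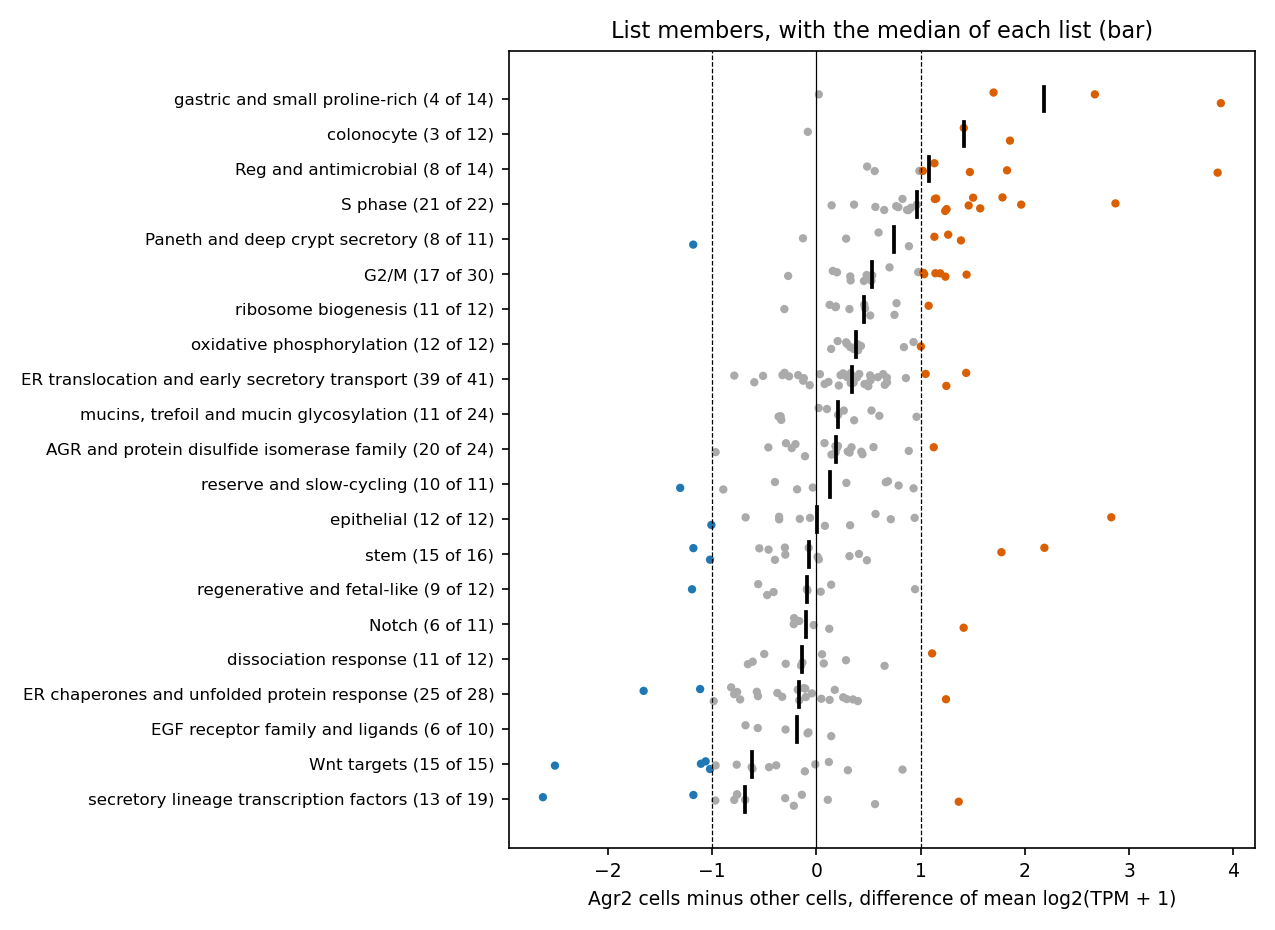
Difference between Agr2 cells and other cells in mean log2(TPM + 1) for members that passed the filter, in lists with at least 3 of them; each point is a gene, orange and blue points are higher or lower by at least 1 (dashed lines), the upright bar is the list median, and the numbers beside a list are the members that passed and all members. The S phase list (median 0.96) and the Reg and antimicrobial list (1.08) lie above the median of all genes (0.03), and the Wnt targets (-0.61) below it.

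S phase genes, which copy the genome, were more often present in the Agr2 cells. Of 22, 21 passed the filter, with 10 higher, 0 lower and a median of 0.96. The median Agr2 cell held 13 of the 22 at 1 TPM or more (range 3 to 22), and the median other cell 6 (range 1 to 22). The mean over the list was 2.82 ± 1.66 (SD, n = 25) against 1.74 ± 1.49 (SD, n = 25), so that the difference of 1.08 was smaller than the SD of either group. Dut, the gene of the enzyme that keeps uracil out of DNA, had medians of 37.7 and 0 TPM, was present in 17 and 4 cells and differed by 2.87. The 10 higher genes included the thymidylate synthase gene Tyms (1.97) and the replicative helicase genes Mcm3 (1.57), Mcm4 (1.24), Mcm5 (1.79) and Mcm6 (1.25). Of 30 G2/M genes, which run mitosis, 17 passed, with 6 higher, 0 lower and a median of 0.54. Among the 6 were Cdk1 (1.44) and Mki67 (1.03, present in 10 and 4 cells). Mki67, Cdk1 (13 and 4), Cdc20 (10 and 5) and Birc5 (10 and 4) passed the filter mostly through the Agr2 cells. So did S phase genes such as Dut and Mcm5 (14 and 5), and passing in this way favours the higher side. At least 15 G2/M genes were present in 7 of 25 Agr2 cells and 3 of 25 other cells. Within N704 to N707 Mki67 differed by 1.43 and Cdk1 by 1.85, and within N708 to N710 they differed by -0.09 and 0.34. Cdkn1c, an inhibitor of the cell cycle, was present in 10 and 7 cells and differed by 0.67.

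The S phase list moved with several of the genes above, and its part in them was not tested beyond a linear term. With that term, which was added after the values were seen, Ffar4 differed by 2.44, Reg3g by 3.07, Sprr2a3 by 2.64, Lgals4 by 1.87, Ascl2 by 1.82, Foxa2 by -2.37 and Sp5 by -2.29. Hnf4a then differed by 0.90, Ceacam1 by 0.33, Prox1 by -0.54, Axin2 by -0.90 and Apcdd1 by -0.84, all within the limit of 1.

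Ndufa12, a subunit of respiratory complex I, was at 4.05 to 57.2 TPM (median 24.1 TPM, 25 cells) against 0 to 49.2 TPM (median 9.98 TPM, 20 cells), a difference of 1.47. Mrpl22 of the mitochondrial ribosome differed by 1.87 and Pck2, the mitochondrial enzyme that makes phosphoenolpyruvate, by 2.14. Of 12 oxidative phosphorylation genes all passed the filter and 1 (Sdhb, 1.003) was higher, a share near the 5.99% over all genes, with a median of 0.38. Atp5a1 of the ATP synthase differed by 0.84, yet the Agr2 cell had more in 77.8% of pairs. The last of the 15 higher genes named by the rule were Ide, the insulin-degrading enzyme (1.23), Faim, an inhibitor of Fas-induced cell death (1.91), Efcab12 (1.67), and 5730416F02Rik (2.29), a processed pseudogene whose reads may belong to its parent gene.

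The gene that separated the groups best on the lower side was Cstf3, a subunit of the complex that cleaves mRNA before polyadenylation. It was at 0 to 8.08 TPM (median 1.31 TPM, 13 cells at 1 TPM or more) in the Agr2 cells and 0 to 40.6 TPM (median 5.95 TPM, 23 cells) in the other cells. It differed by -1.43 (SD over cells 1.203 and 1.157), the Agr2 cell had more in 19.4% of pairs, and the locus overlaps Tcp11l1. Tor1a, an ATPase of the ER lumen, had medians of 3.87 and 37.6 TPM and differed by -2.38. Rnf103, a ubiquitin ligase of the ER, differed by -1.46, Golph3, a Golgi phosphoinositide-binding protein, by -1.07, Gapvd1, an activator of RAB5 on endosomes, by -1.41, and the endosomal adaptor Appl2 by -1.13. Signaling genes included Dusp6, the phosphatase of ERK, with medians of 32.6 and 78.1 TPM and a difference of -1.41, the transcription factor Stat3, with medians of 5.97 and 15.7 TPM and a difference of -1.11, and Rgs12, a regulator of G proteins, present in 7 and 17 cells with a difference of -1.74. The other lower genes named by the rule were Gatad2a of the NuRD complex (-1.22), Ttc9c (-1.80), the deacetylase Hdac11 (-1.48), Nfe2l3 (-1.27), Bnip2 (-1.51) and Zfp64 (-1.42). Among list members, the Polycomb gene Bmi1, a marker of reserve stem cells, was lower by 1.30, and the tight junction gene Ocln by 1.01.

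**Figure D4:**
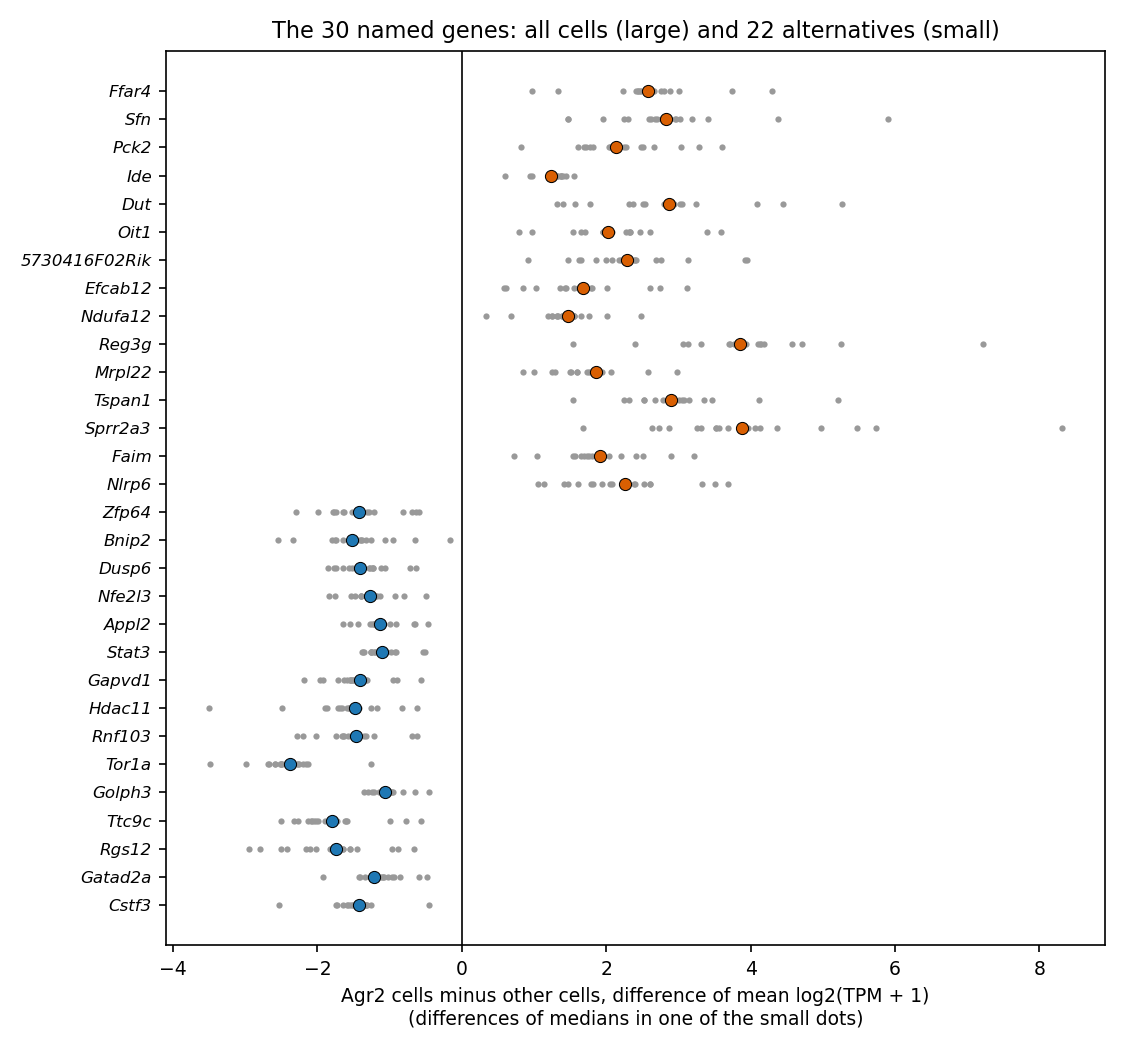
Difference between Agr2 cells and other cells on the log2(TPM + pseudocount) scale for the 15 higher and 15 lower genes named by the rule, with all cells (large points, orange higher and blue lower) and under each of 22 alternatives (small grey points). Every point of a gene lies on the same side of 0, which for 5 of the alternatives was part of the choice. All 22 reuse cells that chose the genes.

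For several genes the difference was larger within N502 to N505 than within N506 to N517. In that order they were 5.74 and 1.69 for Sprr2a3, 3.89 and 1.31 for Lgals4, 2.48 and 0.34 for Ndufa12, 4.09 and 1.57 for Dut, 3.64 and 0.40 for Tyms and 3.08 and 0.35 for Mcm5. Hnf4a differed by 2.04 and 0.57, Prox1 by -1.58 and -0.40 and Foxa2 by -3.23 and -1.21. For Sox9 the order was the other way, at -0.015 and -2.19. Ffar4 (2.88 and 2.55), Reg3g (4.14 and 3.31), Sp5 (-2.20 and -2.19) and Cstf3 (-1.53 and -1.26) were closer between them.

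Of the 30 named genes, all kept their sign in each of 22 alternatives, but 5 of those alternatives were part of how the genes were chosen. All 22 reuse cells that chose the genes, so the kept signs are no independent check. In cells with few G2/M genes, 15 of 15 higher and 14 of 15 lower genes stayed past the limit of 1. With the S phase term these counts were 14 and 14, and without the 7 cells of N507 they were 15 and 13.

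Within the 25 Agr2 cells, the level of Agr2 did not follow the genes that set the group apart. Spearman's rho with Agr2 within those cells ran from -0.33 (Faim) to 0.38 (Oit1) over the 15 higher genes, and was -0.11 for Ffar4, 0.04 for Reg3g and 0.00 for Sprr2a3. The genes whose levels were most like Agr2 within the 25 cells were ENSMUSG00000094114 (0.67), Osbpl7 (0.59), Slc7a6os (0.54), Uap1 (0.54), an enzyme that makes UDP-N-acetylglucosamine, and Kmt5c (0.53). These correlations are descriptions over 25 cells of 1 mouse that share the sort and the sequencing, and were picked as the highest among all genes compared.

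Markers of the cell types that the sort should remove were mostly under the filter. Of 12 immune genes 2 passed the filter, of 6 endothelial genes 0 and of 7 fibroblast genes 2, with none of these apart. The mean over the immune list was 0.22 in the Agr2 cells and 0.23 in the other cells on the log2 scale. Of 12 epithelial genes all passed, with 1 higher (Lgals4), 1 lower (Ocln) and a median of 0.01. Of 12 genes of the response to tissue dissociation 11 passed and 1 (Hspa1a, 1.11) was higher, a share near the 5.99% over all genes.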

How the data were processed

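The deposited table holds TPM of 24410 genes, which the authors made with RSEM 1.2.31 after bcl2fastq 1.8.4, with Bowtie2 2.2.9 on build GRCm38.p4, per the submitters' processing notes. Whether strand was used is not given here, so overlapping genes cannot be told apart. Depth is unknown. Symbols came from GENCODE M21, which matched 24235 IDs. Libraries in pairs with r above 0.9, over log2(TPM + 1) of genes that reached 1 TPM in 20% of them, were averaged. Cells were split at 1 TPM of Agr2, and genes that reached 1 TPM in 20% of cells were compared by difference of mean log2(TPM + 1) and by pair share. No test was run, as the cells are of 1 mouse and the split used these values. The members, lists and rules were chosen with earlier results of these data known. The genes named were Agr2 and Agr3, the 15 highest and 15 lowest by pair share among genes past a difference of 1 with the same direction without N704-N517 and in both i7 and both i5 groups, list members past that limit or seen in most cells, the 10 genes most like Agr2, and Lgr5, Prox1, Mki67 and Cdkn1c. A list member that the rule named is not reported here. Others, such as Egfr, Klf4 and Foxa3, were named after their values were seen. There were 20 other settings tried (N704-N517 or other libraries left out, index groups, thresholds, pseudocounts, filters, medians, rescaling and adjustment for genes per cell) and 2 added after the values were seen (no N507, and an S phase term). The calculation was run on shuffled values with known differences added, which checks the arithmetic only and not the differences reported here. Values were computed in Python 3.11.15 with SciPy 1.17.1, pandas 2.3.3 and numpy 2.4.6, and drawn with matplotlib 3.10.9.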

Additional observations from a re-analysis of the deposited data

How the results depend on the processing

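The counts of genes past a difference of 1 depended on the setting, against 549 higher and 255 lower genes as reported, 41 and 12 list members among them, each counted once, and 30 genes with a rho of 0.4 or more with Agr2. With a pseudocount of 0.1 there were 1571 higher and 734 lower genes (72 and 21 list members), and with 10 there were 71 and 18 (7 and 2). Differences of medians gave 1149 and 677, and adjustment for genes per cell 333 and 470, which turns the balance from higher to lower. With the S phase term 356 genes were higher, with 19 list members higher and 7 lower. Within N704 to N707 529 genes were higher and 835 lower, so more were lower than higher. There 25 list members were lower and 71 genes were like Agr2. Within N708 to N710 1942 were higher, 389 lower, 85 list members higher and 642 like Agr2. Within N502 to N505 1748 were higher and 401 lower (93 and 20 list members), with 646 like Agr2. Within N506 to N517 464 were higher and 850 lower, so more were again lower (23 list members higher, 20 lower), with 60 like Agr2. Without the libraries that share an index with N704-N517, 1002 were higher, 410 lower, 62 list members higher and 159 like Agr2. Lower genes numbered 403 without the averaged pairs, 628 when Agr2 above 0 set the groups, and 385 in cells with few G2/M genes. Genes like Agr2 numbered 76 without N704-N517, 58 in cells with few G2/M genes, 59 without N507 and 13 with the filter at 50% of cells, which left 21 higher list members. The cause of these shifts was not tested.

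Of 594 list values under the alternatives, 593 moved by less than the SD over cells and 1 by more. That SD is wide, and a move within it can change the sign. The stem list kept its sign in 16 of 22 alternatives (-0.17 to 0.25), G2/M in 19 (-0.24 to 1.19) and oxidative phosphorylation in 20 (-0.43 to 1.32). The Reg and antimicrobial and colonocyte lists kept theirs in all 22, and Wnt targets in 21. With its own term the S phase list has no difference left, by construction. Of 1760 values of genes apart by 1 or more, 18 changed sign, and of 2222 values of named genes within that limit 260 did, such as Sox4 (-0.76 with all cells, 1.14 within N708 to N710) and S100a6 (-0.47 and 1.19). Among the genes apart by 1 or more, the sign changed when Agr2 above 0 set the groups for Mcm4 (-0.074) and Nop16 (-1.34), within N704 to N707 for Nop16 (-0.73), and without index-sharing libraries for Defa24 (-0.015). Within N708 to N710 it changed for Defa24 (-0.34), Lyz1 (-0.031), Apcdd1 (0.050), Mki67 (-0.085), Ube2c (-1.89), Cks2 (-0.36) and Birc5 (-0.67). Within N506 to N517 it changed for Dnajb9 (0.30), Ube2c (-1.10), Cks2 (-1.04) and Sdhb (-0.53), and with the S phase term for Cdt1 (-0.18), Ube2c (-0.052) and Birc5 (-0.013).

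No paired analysis was possible because the labels give 1 group and no replicate numbers shared between groups. The limits are 1 mouse, 3 mixed tumors, unknown depth, TPM in which 1 abundant transcript lowers the rest, and a split made on a single transcript.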

Other observations

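Of 11 Notch pathway genes 6 passed the filter, with 1 higher in the Agr2 cells and 0 lower. That gene was Nrarp, a feedback inhibitor that Notch signaling switches on, which was at 1 TPM or more in 13 Agr2 cells and 4 other cells and differed by 1.41. Of 12 ribosome biogenesis genes 11 passed and 1 was higher, a share near the 5.99% over all genes. That gene was Nop16 (1.08). Its difference was -0.73 within N704 to N707 and 4.29 within N708 to N710. Of 11 genes of reserve and slow-cycling cells 10 passed, with Bmi1 the 1 lower gene.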
